A study of Mus musculus with 15 samples.

Results

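Fgf23, Ceacam15 and Agt encode a phosphate hormone of bone, a carcinoembryonic antigen-related cell adhesion molecule, and angiotensinogen. They were followed in E0771 cells, a mouse mammary carcinoma line, with an empty vector or with a Malt1 construct, of which there were 4. The genes were picked by symbol, 3 of the 55571 genes in the count table and all 3 among the 14571 that passed the filter on low counts. They were picked because earlier results of the same libraries showed them to differ between the groups, so their levels and fold changes are descriptions and carry no p-value. The 5 groups of 3 libraries each were the vector control (Vector), wild-type Malt1 (Malt1_WT), a mutant labelled PD (Malt1_PD), and the substitutions V87R (Malt1_V87R) and L88D (Malt1_L88D), all in the same line and, per the series title, grown without T cells. Total RNA was sequenced as stranded paired-end libraries.

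The labels do not spell out PD, and its values stand in columns named for the substitution of a cysteine in the Malt1 protease domain. The labels name no deletion of the cells' own Malt1, and its mRNA was counted with the vector as well. The labels do not say whether a construct was carried by a pool or by 1 clone of cells, or whether replicates were separate cultures. The p-values below therefore rest on how much these libraries vary, and that variation may be technical only.

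The 3 proteins belong to separate systems. Fibroblast growth factor 23 is secreted by osteocytes and osteoblasts, binds an FGF receptor together with the co-receptor Klotho in the kidney, and lowers phosphate reabsorption and the synthesis of active vitamin D. Angiotensinogen is a clade A serpin without known inhibitory action, made mainly by the liver and induced there in the acute-phase response. Renin and then angiotensin-converting enzyme cut it into angiotensin II, which acts on the AT1 and AT2 receptors. The CEA family, with its Ceacam and pregnancy-specific glycoprotein (Psg) branches, belongs to the immunoglobulin superfamily, and many rodent members are expressed in placental trophoblast. MALT1, the protein the constructs encode, is a paracaspase. Bound to BCL10 and a CARD protein, it relays receptor signals to NF-kB as a scaffold and cleaves substrates as a protease.

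Library totals ran from 15471746 to 21458457 counts, and no library was a copy of another. Levels are given in CPM, counts per 1e6 counts of a library after TMM scaling, as mean ± SD over n = 3 libraries, and log2 fold changes as the edgeR estimate ± standard error (SE). Malt1 checked the labels, being lowest with the vector, at 28.1 ± 1.92 CPM. Malt1_WT had 202 ± 7.96 CPM, and the mutants had more, Malt1_V87R 279.5 ± 1.35, Malt1_L88D 251 ± 6.73 and Malt1_PD 249.8 ± 8.86 CPM. Of 13 mammary epithelial markers, Krt8 was at 117 ± 8.61 CPM with the vector, Erbb2 at 35.1 ± 1.74 CPM and Epcam at 9.74 ± 1.16 CPM. Krt18, Krt7, Krt19, Krt14, Krt5, Cdh1, Elf5 and Gata3 were under 0.5 CPM in every group mean, and Pgr was at 0 in every library, so the labelled epithelial origin rested on few of its markers.

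The regions just upstream of the 3 genes are shown so that the promoters of genes that did not move together can be set side by side. Each line gives the 250 bases before the start site on the gene's own strand, from RefSeq on GRCm38.p6, with matches to the motifs named below in capitals. The regions are chr6:127072652-127072901 (plus strand) for Fgf23, chr7:16675706-16675955 (minus strand) for Ceacam15 and chr8:124569707-124569956 (minus strand) for Agt.
Fgf23: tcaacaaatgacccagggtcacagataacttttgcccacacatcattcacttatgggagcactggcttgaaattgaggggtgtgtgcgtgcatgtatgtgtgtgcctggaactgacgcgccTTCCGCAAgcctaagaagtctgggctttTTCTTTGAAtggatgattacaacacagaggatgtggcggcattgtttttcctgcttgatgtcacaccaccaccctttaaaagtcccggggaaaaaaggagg
Ceacam15: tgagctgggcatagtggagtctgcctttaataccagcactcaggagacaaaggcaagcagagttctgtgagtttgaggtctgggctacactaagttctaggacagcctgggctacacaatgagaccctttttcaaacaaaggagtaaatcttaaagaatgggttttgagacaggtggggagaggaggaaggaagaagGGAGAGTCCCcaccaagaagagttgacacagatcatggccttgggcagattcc
Agt: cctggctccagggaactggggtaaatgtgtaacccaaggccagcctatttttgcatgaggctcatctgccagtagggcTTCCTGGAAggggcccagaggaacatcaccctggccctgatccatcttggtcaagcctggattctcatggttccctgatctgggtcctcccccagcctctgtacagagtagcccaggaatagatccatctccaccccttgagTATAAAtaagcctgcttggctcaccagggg
Positions count back from the start site to the leftmost base of the match as printed, and both strands were searched. Ceacam15 held the NF-kB consensus at -53, on the minus strand relative to the gene, a motif found in 3.9% of 32851 promoters of this length. Fgf23 held a STAT motif (TTCNNNGAA) at -101, found in 7.02% of promoters, and a C/EBP motif (TTGCNNAA) at -129 on the opposite strand, found in 9.56%. Agt held a STAT motif at -172 and a TATA box (TATAAA) at -30, the latter found in 12.4% of promoters. No 2 of these matches overlapped. None of the 3 windows held the letters of AP-1 (TGANTCA, in 6.75% of promoters), CRE (TGACGTCA, 1.55%) or the E-box (CACGTG, 6.02%). The Fgf23 window had 6 CpG dinucleotides, the median of all promoters, whereas those of Ceacam15 and Agt had 0, as in 7.87% of promoters. A match is a run of letters and no evidence of binding, and no binding data were measured here.

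Fgf23 (ENSMUSG00000000182.9, protein coding, 3 exons, chr6:127072902-127081408, plus strand of GRCm38) was almost silent with the vector and was highest in Malt1_WT. Its counts were 2, 3 and 3 in the vector libraries, 222, 230 and 228 in Malt1_WT, and 115, 98 and 92 in Malt1_PD. Malt1_V87R gave 16, 13 and 12 counts and Malt1_L88D 9, 13 and 10. All 12 construct libraries stood above all 3 vector libraries, Malt1_WT above Malt1_PD, and Malt1_PD above both death-domain substitutions, which overlapped each other. The vector mean was 0.141 ± 0.0459 CPM. Malt1_WT had a mean of 14.1 ± 0.769 CPM, Malt1_PD 5.61 ± 0.616, Malt1_V87R 0.674 ± 0.123 and Malt1_L88D 0.592 ± 0.0255 CPM.

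Against the vector, the log2 fold change of Fgf23 was 6.61 ± 0.23 in Malt1_WT, 97.8-fold, and 5.28 ± 0.27 in Malt1_PD, 38.9-fold. Among the 14571 tested genes these were the fifth-highest and seventh-highest fold changes (rank 5 and rank 7). The substitutions gave 2.23 ± 0.42 in Malt1_V87R and 2.06 ± 0.44 in Malt1_L88D, ranks 59 and 79. These ratios have few counts below them. Only 8 counts of Fgf23 fell in the vector libraries together, so the ratio of summed counts had a 95% interval from 51.7 to 238 for Malt1_WT and 20.5 to 95.4 for Malt1_PD. For the substitutions the interval was 2.26 to 12.1 (Malt1_V87R) and 1.96 to 10.9 (Malt1_L88D). Such intervals are exact binomial and cover counting error only. With a prior count of 2 in place of edgeR's default the log2 fold change in Malt1_WT was 5.85 and in Malt1_PD 4.54.

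**Figure D1:**
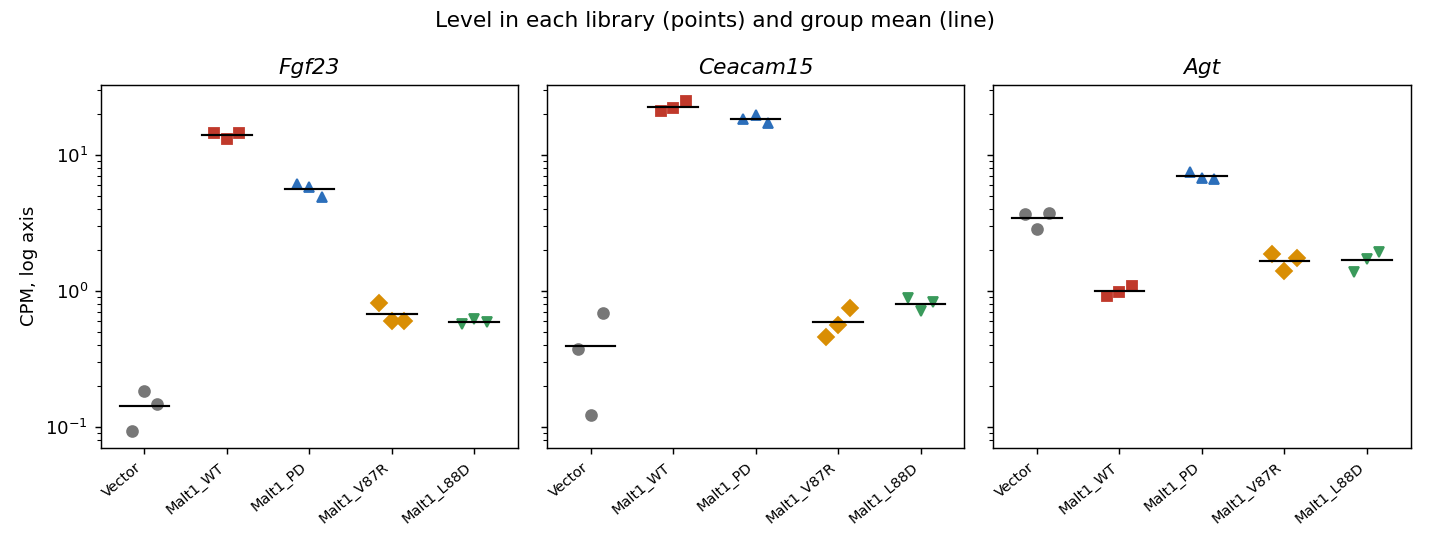
CPM of Fgf23, Ceacam15 and Agt on a log axis for each of the 15 libraries (points) in 5 groups of 3, with the group mean as a line. Fgf23 and Ceacam15 are highest in Malt1_WT and Malt1_PD, whereas Agt is highest in Malt1_PD, at 6.99 CPM, and lowest in Malt1_WT, at 0.994 CPM.

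Ceacam15 (ENSMUSG00000078795.2, protein coding, 3 exons, chr7:16671331-16675705, minus strand) was about as high in Malt1_PD as in Malt1_WT, and close to the vector with the death-domain substitutions. Its counts were 8, 2 and 14 with the vector, 326, 385 and 388 in Malt1_WT, and 347, 336 and 325 in Malt1_PD. Malt1_V87R gave 9, 12 and 15 counts and Malt1_L88D 14, 15 and 14. In CPM the libraries ran from 0.123 to 0.685 with the vector, 0.459 to 0.752 in Malt1_V87R, 0.714 to 0.883 in Malt1_L88D, 17.4 to 19.9 in Malt1_PD and 21.3 to 24.9 in Malt1_WT. Malt1_WT and Malt1_PD stood far above the rest and did not overlap each other, Malt1_V87R overlapped the vector, and the lowest Malt1_L88D library lay just above the highest vector library.

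The log2 fold change of Ceacam15 against the vector was 5.77 ± 0.19 in Malt1_WT, from 0.393 ± 0.282 to 22.8 ± 1.91 CPM. In Malt1_PD, at 18.6 ± 1.28 CPM, it was 5.47 ± 0.20, the fifth-highest of all tested genes (rank 5, against rank 13 in Malt1_WT). The substitutions gave 0.51 ± 0.39 in Malt1_V87R (0.590 ± 0.149 CPM) and 0.95 ± 0.38 in Malt1_L88D (0.808 ± 0.0863 CPM). Counting intervals for the ratio of summed counts ran from 0.831 to 2.51 in Malt1_V87R, 1.15 to 3.34 in Malt1_L88D, 30.0 to 70.5 in Malt1_PD and 36.9 to 86.6 in Malt1_WT. Vector replicate 3 held 14 of the 24 vector counts, and without it the log2 fold changes of Ceacam15 became 1.14 in Malt1_V87R, 1.58 in Malt1_L88D, 6.11 in Malt1_PD and 6.41 in Malt1_WT.

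Agt (ENSMUSG00000031980.9, protein coding, 5 exons, chr8:124556534-124569706, minus strand) went against its description as a gene switched on by active constructs. It was readily counted with the vector, higher only in Malt1_PD, and lower in Malt1_WT, Malt1_V87R and Malt1_L88D. Its counts were 80, 47 and 77 with the vector, 14, 17 and 17 in Malt1_WT, and 142, 114 and 125 in Malt1_PD. Malt1_V87R gave 37, 30 and 35 counts and Malt1_L88D 22, 36 and 33. In CPM the vector libraries were at 3.71, 2.88 and 3.77, the Malt1_WT libraries at 0.913, 0.978 and 1.09, and the Malt1_PD libraries at 7.53, 6.76 and 6.68. The groups did not overlap apart from Malt1_V87R (1.39 to 1.89 CPM) and Malt1_L88D (1.39 to 1.95 CPM), which lay together between Malt1_WT and the vector.

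From a vector mean of 3.46 ± 0.495 CPM, Agt was 3.49-fold lower in Malt1_WT, at 0.994 ± 0.0904 CPM (log2 fold change -1.80 ± 0.22). It was 2.005-fold higher in Malt1_PD, at 6.99 ± 0.470 CPM (log2 fold change 1.00 ± 0.15, interval of the ratio of counts 1.68 to 2.38). With the substitutions the mean was 1.68 ± 0.255 CPM in Malt1_V87R (log2 fold change -1.06 ± 0.18) and 1.68 ± 0.282 CPM in Malt1_L88D (-1.04 ± 0.19). In those weak comparisons Agt lay near the bottom of all tested genes, 50th and 49th from the lowest fold change (ranks 50 and 49). Agt was below the median level of tested genes in every group. Per kb of exon it stood above 33.9% of 14557 tested genes with the vector, 16.7% in Malt1_WT and 44.8% in Malt1_PD. In Malt1_V87R and Malt1_L88D it stood above 23.8% and 23.6%.

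Per kb of exon the order of the 3 genes changed with the construct. With the vector Agt led at 1.83 CPM per kb, ahead of Ceacam15 at 0.283 and Fgf23 at 0.0779 CPM per kb. In Malt1_WT Ceacam15 led at 16.4 CPM per kb, above 77.8% of tested genes, with Fgf23 at 7.78 (above 60.8%) and Agt at 0.526 CPM per kb. In Malt1_PD Ceacam15 was at 13.4 CPM per kb, Agt at 3.70 and Fgf23 at 3.09 CPM per kb, the latter above 41.7% of tested genes. With the substitutions all 3 were below the median of tested genes, which was 4.82 CPM per kb in both.

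Set directly against Malt1_WT, Malt1_PD separated the 3 genes. Agt was 6.998-fold higher in Malt1_PD (log2 fold change 2.81 ± 0.20), the second-highest of all 14571 tested genes (rank 2). Fgf23 was 2.51-fold lower (-1.33 ± 0.12), and Ceacam15 1.23-fold lower (-0.30 ± 0.10). Against Malt1_WT, Malt1_V87R had 20.8-fold less Fgf23, 38.2-fold less Ceacam15 and 1.68-fold more Agt mRNA. Malt1_L88D had 23.5-fold less Fgf23, 28.2-fold less Ceacam15 and 1.70-fold more Agt mRNA. Malt1 mRNA itself was no lower in any mutant than in Malt1_WT. Between Malt1_V87R and Malt1_L88D the libraries overlapped for all 3 genes, with log2 fold changes of 0.17 ± 0.31 for Fgf23, -0.44 ± 0.34 for Ceacam15 and -0.02 ± 0.21 for Agt.

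**Figure D2:**
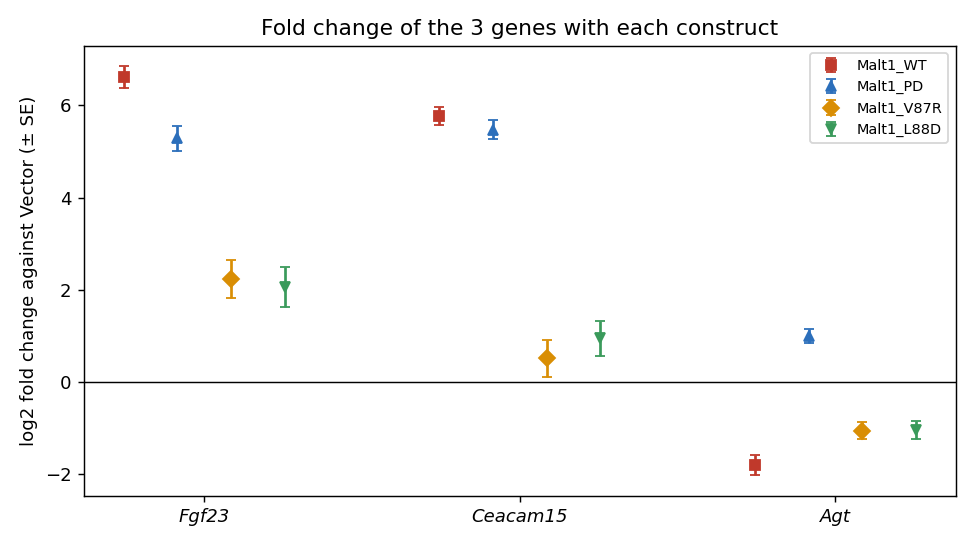
log2 fold change (edgeR, ± SE) of Fgf23, Ceacam15 and Agt for each of the 4 constructs against the same 3 vector libraries. Fgf23 is above 0 with every construct, Ceacam15 reaches 5.77 and 5.47 in Malt1_WT and Malt1_PD, and Agt is above 0 in Malt1_PD, at 1.00, and below 0 with the other constructs.

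Genes that process, sense or induce FGF23 were followed in the same libraries. For background, 27.2% of tested genes were called higher and 27.7% lower in Malt1_WT (edgeR, adjusted p under 0.05), and 22.8% and 22.0% in Malt1_PD, both against the same vector libraries, with medians of -0.01 and -0.00 on the log2 scale. These shares are the background for every list below in these comparisons. All 3 tested enzymes that process the hormone rose in both, with a median log2 fold change of 1.03 in Malt1_WT and 1.48 in Malt1_PD. Galnt3, which glycosylates FGF23 and shields it from cleavage, rose from 4.38 ± 0.177 to 22.2 ± 1.99 CPM in Malt1_WT (edgeR adjusted p = 2.2e-17) and 14.4 ± 0.661 CPM in Malt1_PD. Fam20c, the kinase that opens it to cleavage, rose from 6.54 ± 0.151 to 13.4 ± 0.724 and 18.3 ± 1.51 CPM. Furin, the protease that cuts it, rose from 194 to 260.3 and 274 CPM.

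Galnt3 and Furin were the 2 of these 3 that rose in Malt1_V87R and in Malt1_L88D as well, where 7.01% and 8.97% of tested genes were called higher, with Galnt3 at 6.59 ± 0.624 and 7.59 ± 0.310 CPM. Malt1_PD had less Galnt3 than Malt1_WT (log2 fold change -0.63 ± 0.09, adjusted p = 3.6e-06) and more Fam20c (0.45 ± 0.10, adjusted p = 0.0012), where 10.7% of tested genes were called lower and 12.6% higher. Galnt3 and Fgf23 thus both had means that fell from Malt1_WT to Malt1_PD, then to the substitutions and the vector. Between the substitutions, Galnt3 had the higher mean in Malt1_L88D and Fgf23 in Malt1_V87R. The coarse order is not particular to Galnt3, since Il6 and Nlrp3, given below, had it as well.

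Of the receptors, Fgfr3 rose from 5.44 ± 0.505 CPM to 28.5 ± 0.209 in Malt1_WT and 18.2 ± 1.13 CPM in Malt1_PD, and Fgfr1 fell from 236 ± 1.07 to 184 ± 4.502 and 177 ± 3.39 CPM. The co-receptor gene Kl, which FGF23 needs for high-affinity binding, did not pass the test at 0.560 ± 0.131 CPM with the vector and 0.484 ± 0.170 CPM in Malt1_WT, and Fgfr2, Fgfr4 and Klb were too low to test. The receptor list thus had 1 of 3 tested members higher and 1 lower in both comparisons, with medians of -0.21 and -0.10. Among the other 3 tested FGF ligands, Fgf11 fell from 5.95 ± 0.231 to 4.29 ± 0.292 and 3.79 ± 0.431 CPM, while Fgf2 and Fgf7 did not pass. The number of ligands called, Fgf23 included, went from 2 to 4 in both comparisons without vector replicate 1, where with all libraries 54.9% and 44.8% of tested genes were called in either direction. Fgf23 was chosen for its differences, so its own call is no evidence. With all libraries Fgf11 was the only other ligand called in both.

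The 6 known inducers of Fgf23 all rose in Malt1_WT, and 5 of them in Malt1_PD (medians 2.69 and 1.97, Il1b included). Of all tested genes, 27.2% and 22.8% were called higher in these comparisons. Il6 went from 17.1 ± 0.547 CPM to 291 ± 7.22 in Malt1_WT and 121 ± 5.90 CPM in Malt1_PD. Tnf went from 1.11 ± 0.380 CPM to 53.4 ± 3.80 and 40.2 ± 3.64 CPM. The interleukin gene Il1b went from 0.205 ± 0.0346 CPM to 15.01 ± 1.71 and 6.28 ± 0.0246 CPM. A gene this low elsewhere, which passed the filter only through the groups where it is high, had to differ. The call of Il1b is therefore no evidence. Lcn2, the iron-binding lipocalin, rose by 1.29 ± 0.07 and 1.12 ± 0.07 on the log2 scale. Hif1a, the hypoxia factor, passed only in Malt1_WT (log2 fold change 0.37 ± 0.12, adjusted p = 0.020, against 0.22 ± 0.12, adjusted p = 0.15, in Malt1_PD), and that call ended without Malt1_WT replicate 2 or vector replicate 1. In Malt1_V87R and Malt1_L88D, 3 of the 6 rose, Il6, Lcn2 and Tnf, while Il1b was at 0.245 ± 0.0378 and 0.226 ± 0.0322 CPM. There 7.01% and 8.97% of tested genes were called higher.

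Of the phosphate and vitamin D genes, 4 of 6 tested rose and 1 fell in Malt1_WT, and 3 rose and 1 fell in Malt1_PD (medians 0.67 and 0.44). Cyp27b1, the 1-alpha-hydroxylase that makes active vitamin D and that FGF23 represses in the kidney, rose from 2.52 ± 0.222 to 19.7 ± 0.618 CPM in Malt1_WT and 17.3 ± 0.709 CPM in Malt1_PD. Slc20a1, a phosphate importer, rose from 128 ± 0.999 to 229 ± 9.34 and 213 ± 3.76 CPM, and Xpr1, a phosphate exporter, by 0.50 ± 0.08 and 0.76 ± 0.08 on the log2 scale. Vdr, the vitamin D receptor, fell from 7.03 ± 0.236 to 2.76 ± 0.361 CPM in Malt1_WT and 5.36 ± 1.10 CPM in Malt1_PD. The Vdr call in Malt1_PD (adjusted p = 0.032) ended without vector replicate 2, vector replicate 3 or Malt1_PD replicate 2. Pth1r, the parathyroid hormone receptor, rose in Malt1_WT, from 1.12 ± 0.290 to 2.35 ± 0.261 CPM. No member of the list passed in Malt1_V87R, and the 2 that rose in Malt1_L88D, Slc20a1 and Xpr1, both lost their call without Malt1_L88D replicate 1 or Malt1_L88D replicate 2, and Xpr1 also without vector replicate 1 or vector replicate 3. Neither tested bone regulator, Phex at 1.19 ± 0.341 CPM and Enpp1 at 8.25 ± 0.926 CPM with the vector, passed in any comparison with it.

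The CEA family was mostly silent, with 6 of its 30 genes in the table tested. Beside Ceacam15, Psg22, Ceacam16 and Ceacam1 rose in Malt1_WT, and Psg22 and Ceacam16 in Malt1_PD (list medians 0.96 and 0.56, Ceacam15 included). Psg22, a pregnancy-specific glycoprotein, went from 0.251 ± 0.0706 CPM to 4.55 ± 0.570 in Malt1_WT and 3.43 ± 0.0492 CPM in Malt1_PD (log2 fold changes 4.12 ± 0.29 and 3.70 ± 0.30). It was at 0.425 ± 0.0350 CPM in Malt1_V87R and 0.535 ± 0.241 CPM in Malt1_L88D, where no family member passed the test. Psg22 and Ceacam15 were both under 1 CPM with the vector, and a gene that passed the filter only through the groups where it is high had to differ. Without vector replicate 3 or Malt1_L88D replicate 3, 1 family member was called in Malt1_L88D, and without a filter 5 were called in Malt1_PD. Ceacam15 is among the family members counted here. It was chosen for its differences between the groups, so its own call is no evidence. Ceacam16, a protein of the inner ear, rose from 1.70 ± 0.521 to 2.996 ± 0.627 CPM in Malt1_WT and 2.54 ± 0.376 CPM in Malt1_PD (adjusted p = 0.036), the latter a call that ended without vector replicate 3, Malt1_PD replicate 1 or Malt1_PD replicate 3. Family members share sequence, and how reads that map to several genes were counted is not given in the sources used here, so their levels are uncertain.

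Beside Agt, the angiotensin system had 6 of 11 genes of angiotensin formation, 3 of 4 aminopeptidase genes and 1 of 5 receptor genes tested. Renin (Ren1) and the receptor genes Agtr1a, Agtr1b and Agtr2 were at 0 in every library, Mme was too low to test, and Ace was at 2.19 ± 0.346 CPM with the vector and did not pass in any comparison with it. Of the 6 genes of angiotensin formation, 1 rose and 2 fell in Malt1_WT and 1 rose and 1 fell in Malt1_PD, with medians of -0.07 and -0.02. Atp6ap2, the (pro)renin receptor, rose from 153 ± 2.13 to 189.6 ± 3.90 CPM in Malt1_WT and 190.3 ± 10.6 CPM in Malt1_PD. Thop1, a peptidase that forms angiotensin 1-7, fell by 0.34 ± 0.06 and, in a call that ended without Malt1_PD replicate 2 or vector replicate 3, by 0.20 ± 0.06 on the log2 scale. The fall of Prep in Malt1_WT (log2 fold change -0.09 ± 0.04, adjusted p = 0.045) ended without any 1 of 5 of the 6 libraries compared.

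Of the aminopeptidases that degrade angiotensins, Anpep rose in both comparisons, by 0.45 ± 0.04 in Malt1_WT and 0.27 ± 0.04 in Malt1_PD on the log2 scale, and Rnpep in Malt1_PD, by 0.21 ± 0.06, so that 1 of 3 tested members rose in Malt1_WT and 2 in Malt1_PD (medians -0.02 and 0.21). Malt1_PD had more Rnpep mRNA than Malt1_WT (0.22 ± 0.06, adjusted p = 0.0051) and less Anpep (-0.19 ± 0.04, adjusted p = 0.0010). Agtrap, which binds the AT1 receptor, was the only tested gene of the receptor list and did not pass, at 30.7 ± 2.57 CPM with the vector.

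Among clade A serpins, the family of angiotensinogen, 4 of 26 genes were tested. Of these, Agt was lower in Malt1_WT than with the vector and Serpina12 was higher. Serpina3f and Serpina3g had 0 counts with the vector and so could not be lower. Serpina3g was at 0 counts with the vector and at 4.04 ± 1.31 CPM in Malt1_WT, at least 77.6-fold higher against a floor of 3 counts over the group, and at 0.991 ± 0.438 CPM in Malt1_PD, at least 18.9-fold higher. Serpina3f was also at 0 with the vector and reached 3.28 ± 0.621 CPM in Malt1_WT, at least 63.5-fold higher, but 0.0572 ± 0.0594 CPM in Malt1_PD. Serpina12, the adipokine vaspin, rose from 0.605 ± 0.157 to 1.93 ± 0.243 and 2.46 ± 0.588 CPM (adjusted p = 8.5e-05 and 3.4e-06). The list's median, Agt included, was 5.28 in Malt1_WT and 2.59 in Malt1_PD, or 3.81 and 1.498 with the genes at 0 set to their bounds. Serpina3f and Serpina3g were highest in Malt1_WT, and a gene at 0 with the vector that passed the filter through the groups where it is high had to differ. With the substitutions, Serpina3f was at least 11.5-fold higher in Malt1_V87R and at least 8.66-fold in Malt1_L88D, and Serpina3g at least 13.0-fold and 5.05-fold. Serpina3f and Serpina3g are close copies of each other, so the split of reads between them is uncertain.

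**Figure D3:**
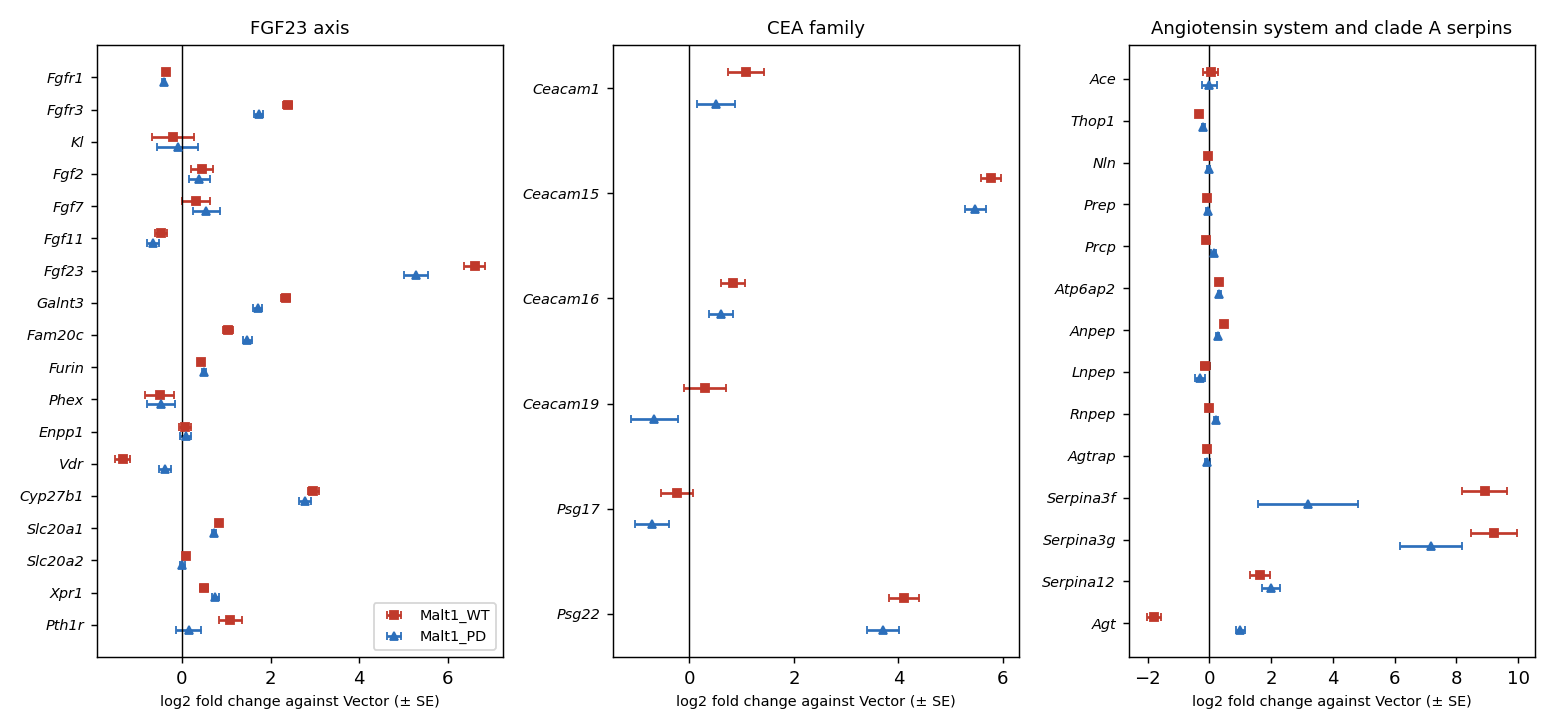
log2 fold change (edgeR, ± SE) in Malt1_WT and Malt1_PD, both against the same vector libraries, for the tested genes of the FGF23 axis, the CEA family, and the angiotensin system with clade A serpins. Fgf23, Ceacam15 and Psg22 stand far to the right, Agt is at -1.80 in Malt1_WT and 1.00 in Malt1_PD, and the estimates for Serpina3f and Serpina3g, which had 0 counts with the vector, depend on the prior count.

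Of 10 known transcription factors of Agt, 7 were tested. Of these, 3 rose and 1 fell in Malt1_WT, and 2 rose and 1 fell in Malt1_PD (medians 0.10 and 0.00). The list was thus near the background, as 54.9% and 44.8% of all tested genes were called in either direction. Cebpb, a factor of the acute-phase response, rose from 173 ± 13.4 to 354 ± 28.2 CPM in Malt1_WT and 286 ± 15.8 CPM in Malt1_PD, and Rela, the NF-kB subunit, from 141 ± 5.70 to 205 ± 1.83 and 198 ± 2.85 CPM. Cebpd fell from 32.5 ± 1.58 to 14.5 ± 1.05 and 14.6 ± 1.76 CPM. Cebpd was at 34.3 CPM in Malt1_V87R and 35.1 CPM in Malt1_L88D. Between Malt1_PD and Malt1_WT, 3 of the 7 were lower in Malt1_PD and none higher. They were Cebpb (log2 fold change -0.31 ± 0.06, adjusted p = 0.00027), Stat3 (-0.10 ± 0.03, adjusted p = 0.037) and the glucocorticoid receptor gene Nr3c1 (-0.32 ± 0.10, adjusted p = 0.039). The calls for Stat3 and Nr3c1 each ended without any 1 of 4 libraries, and without Malt1_PD replicate 3 or Malt1_WT replicate 3 only 1 of the 7 was called, where with all libraries 23.3% of tested genes were.

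In Malt1_V87R 1 of the 7 rose, Esr1, and in Malt1_L88D Esr1, Cebpb, Hnf4a and Stat3 rose and Rela fell, where 11.7% and 17.4% of tested genes were called in either direction, and 4.69% and 8.43% lower. The 5 calls in Malt1_L88D became 2 without Malt1_L88D replicate 1 and 3 without Malt1_L88D replicate 3 or vector replicate 1. The call in Malt1_V87R ended without Malt1_V87R replicate 1, Malt1_V87R replicate 2, vector replicate 1 or vector replicate 3. It also ended with DESeq2, with limma-voom and with only the 6 libraries compared. Hnf4a, a liver factor, was at 0.221 ± 0.0628 CPM with the vector and 0.740 ± 0.347 CPM in Malt1_L88D.

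None of the 3 genes overlaps another annotated gene. The 3 nearest protein-coding genes on either side were read for comparison, and those tested had log2 fold changes between -1.28 and 0.73 in Malt1_WT and Malt1_PD. Tigar lies on the minus strand, so its end, and not its start site, is the part 3.71 kb beyond Fgf23. It rose by 0.73 ± 0.06 on the log2 scale in Malt1_WT (edgeR adjusted p = 2.0e-11) and by 0.60 ± 0.06 in Malt1_PD. The cyclin gene Ccnd2, 43.8 kb away, rose by 0.65 ± 0.05 and 0.43 ± 0.05, and Parp11 by 0.70 ± 0.05 and 0.29 ± 0.05. On the other side D6Wsu163e fell by 0.57 ± 0.08 and 0.31 ± 0.08, the DNA repair gene Rad51ap1 fell by 1.28 ± 0.06 and 1.17 ± 0.06, and Fgf6, another FGF ligand, was too low to test at 0.222 ± 0.163 CPM with the vector and 0.656 ± 0.180 CPM in Malt1_WT. Parp11 also rose with the substitutions, by 0.79 ± 0.05 and 0.83 ± 0.05.

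Around Ceacam15, the glutamine transporter gene Slc1a5, 105.6 kb away, rose by 0.62 ± 0.05 in Malt1_WT and 0.68 ± 0.05 in Malt1_PD. Arhgap35, Ap2s1 and Tmem160 fell by 0.12 ± 0.05, 0.20 ± 0.06 and 0.34 ± 0.10 in Malt1_WT, and did not pass in Malt1_PD. The difference between Malt1_PD and Malt1_WT did not pass for these 3 (adjusted p = 0.83, 0.27 and 0.081), and the calls for Ap2s1 and Tmem160 ended without Malt1_WT replicate 2 or vector replicate 1. That for Arhgap35 ended without any 1 of 5 of the 6 libraries compared. Ceacam9, the nearest family member, had 0 counts with the vector and 3 in Malt1_WT. Around Agt, Cog2, 4.53 kb away, was at 36.1 ± 0.683 CPM with the vector, 35.5 ± 0.918 in Malt1_WT and 37.6 ± 2.19 CPM in Malt1_PD and did not pass (log2 fold changes -0.02 ± 0.06 and 0.06 ± 0.06). Galnt2, 2310022B05Rik and Ttc13 did not pass either in Malt1_WT or Malt1_PD, Capn9 was too low to test, and Pgbd5 fell by 0.70 ± 0.10 and 0.64 ± 0.09.

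**Figure D4:**
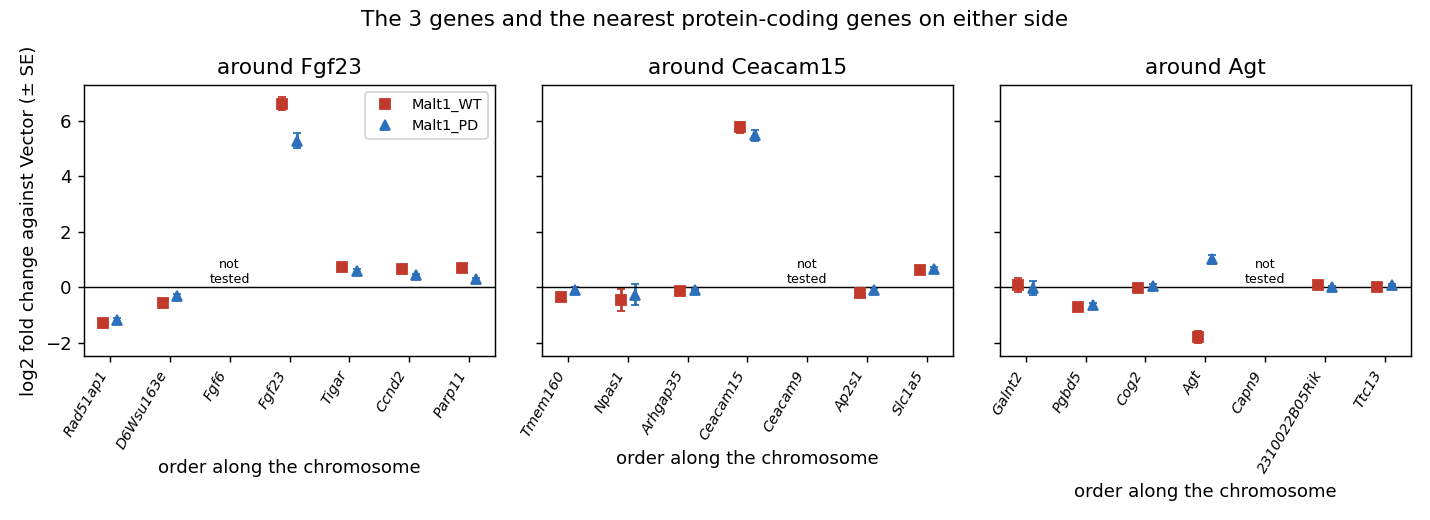
log2 fold change (edgeR, ± SE) in Malt1_WT and Malt1_PD against the same vector libraries for Fgf23, Ceacam15 and Agt and the 3 nearest protein-coding genes on either side, in chromosomal order. Tested neighbours lie between -1.28 and 0.73, and Fgf6, Ceacam9 and Capn9 were not tested.

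Over the 15 libraries, the genes whose log2 CPM followed each gene most closely by Pearson r were counted as a description. They were sought among 9656 tested genes with at least 5 CPM in some group. Fgf23, Ceacam15, Agt and predicted or unnamed symbols were left out of that number. The 5 nearest to Fgf23 were C9orf72 (r = 0.997), the inflammasome sensor gene Nlrp3 (0.996), Clic4 (0.996), Ankrd33b (0.996) and Maff (0.995). Nlrp3, for example, was at 7.57 ± 0.285 CPM with the vector, 67.9 ± 3.74 in Malt1_WT, 39.5 ± 2.79 in Malt1_PD, and 12 ± 0.331 and 13.1 ± 0.991 CPM in Malt1_V87R and Malt1_L88D. Those nearest to Ceacam15 were the plasminogen activator genes Plau (0.998) and Plat (0.995), with Alppl2 (0.996), Phlda1 (0.995) and Tnf (0.995). Plau was at 14.8 ± 2.42 CPM with the vector, 123 ± 3.04 in Malt1_WT, 95.7 ± 5.03 in Malt1_PD and 17.5 ± 1.30 and 19.4 ± 0.204 CPM with the substitutions.

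No gene followed Agt as closely: Itgb5 (0.963), Trim47 (0.952), Sec14l1 (0.9504), Pdlim4 (0.940) and Plp2 (0.936) came nearest. The integrin gene Itgb5 kept the order of Agt over a narrower range, from 96.3 ± 4.26 CPM in Malt1_WT through 103 ± 2.76 and 103 ± 4.62 CPM with the substitutions and 113 ± 2.50 CPM with the vector to 141 ± 6.56 CPM in Malt1_PD. Fgf23 and Ceacam15 had r = 0.968 with each other, and Agt had -0.08 with Fgf23 and 0.14 with Ceacam15. The 15 points share 5 group means, so many genes reach such values, and Spearman rank correlation kept 0, 1 and 2 of the 5 genes named for Fgf23, Ceacam15 and Agt.

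Few genes went from near 0 to a sizeable level. Of 42048 genes with a vector mean under 0.5 CPM, 15 reached at least 5 CPM in Malt1_WT and 7 in Malt1_PD, and Fgf23 and Ceacam15 were among both. Such counts include predicted or unnamed symbols, which the order by level leaves out. By level, Malt1_WT was led by the chemokine gene Cxcl9 at 163 CPM, Ceacam15 at 22.8 CPM, the collagenase gene Mmp13 at 17.95 CPM, Il1b at 15.01 CPM and the macrophage elastase gene Mmp12 at 14.4 CPM, ahead of Fgf23 at 14.1 CPM. Malt1_PD was led by Ceacam15 at 18.6 CPM, Mmp13 at 8.51 CPM, the fatty acid receptor gene Gpr84 at 8.08 CPM, Mmp12 at 6.89 CPM and Il1b at 6.28 CPM, and Fgf23 came seventh at 5.61 CPM. In Malt1_V87R and Malt1_L88D 4 and 3 genes did so, Cxcl9 among both, and none of Fgf23, Ceacam15 and Agt. With limits of 1 and 2 CPM the counts were 154, 90, 24 and 28 genes for the 4 constructs in the same order. Agt was in none of these sets, its vector level being too high.

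Markers of the tissues that normally make these proteins were looked at in the same libraries. In bulk RNA, fewer cells of a type and less RNA per cell cannot be told apart. Of 14 hepatocyte markers only Apob and Trf could be tested, and Ttr, Serpina1a, Serpina1b and Fgb were at 0 in every library. Their summed level was 2.04 to 2.58 CPM with the vector, 5.48 to 6.73 in Malt1_WT and 4.06 to 4.88 CPM in Malt1_PD. Apob, the lipoprotein gene, rose from 0.220 ± 0.0514 to 3.75 ± 0.450 and 3.22 ± 0.199 CPM. Apob thus made up most of the sum in Malt1_WT and Malt1_PD. A gene so low with the vector, which passed the filter only through the groups where it is high, had to differ. The part of the hepatocyte markers in the Agt levels was not tested. Trf fell in Malt1_PD, a call that ended without Malt1_PD replicate 3, vector replicate 2 or vector replicate 3.

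Of 10 osteoblast and osteocyte markers, 3 were tested and only the bone factor gene Runx2 passed (2 were called in Malt1_PD without vector replicate 1), falling from 72.9 ± 5.35 to 45.7 ± 3.78 CPM in Malt1_WT and 57.8 ± 5.42 CPM in Malt1_PD. The summed markers ran from 70.7 to 80.7 CPM with the vector, 43.9 to 50.2 in Malt1_WT and 55.9 to 66.6 CPM in Malt1_PD. Runx2 made up nearly all of this sum. Sp7 and Phex were tested as well and did not pass. Sp7 went from 0.62 ± 0.15 to 1.00 ± 0.30 and 1.11 ± 0.14 CPM, and Phex from 1.19 ± 0.34 to 0.85 ± 0.12 and 0.88 ± 0.32 CPM. The defining genes Dmp1, Sost, Bglap and Mepe had group means of at most 0.106 CPM. Of 10 trophoblast markers, 3 were tested, 1 rose and 1 fell in Malt1_WT, and 1 rose and 2 fell in Malt1_PD, where the fall of Hand1 ended without vector replicate 3. Their summed level was 6.94 to 9.40 CPM with the vector, 6.52 to 7.64 in Malt1_WT and 5.99 to 6.79 CPM in Malt1_PD.

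Adipocytes and astrocytes can also make angiotensinogen. The 7 adipocyte markers summed to 294 to 322 CPM with the vector, 510.1 to 531 in Malt1_WT and 479.6 to 529 CPM in Malt1_PD, nearly all of it Fabp4, the only one tested, which rose in both. The 5 astrocyte markers summed to at most 8.05 CPM in any library. They ran from 2.25 to 3.06 CPM with the vector, 6.68 to 8.05 in Malt1_WT and 4.09 to 5.09 CPM in Malt1_PD. Of the 2 tested, Slc1a2 rose and Gfap fell in both, the fall in Malt1_PD ending without Malt1_PD replicate 1. The 10 fibroblast markers summed to 402 to 433 CPM with the vector, 394 to 402 in Malt1_WT and 444.5 to 466 CPM in Malt1_PD, with 2 of 7 tested members higher and 1 lower in Malt1_PD than in Malt1_WT. Against the vector, 2 of the 7 rose and 4 fell in Malt1_WT, and 1 rose and 1 fell in Malt1_PD. In Malt1_WT the fall of Col1a2 ended without vector replicate 2 and that of Col3a1 without Malt1_WT replicate 1. The part of these cell type markers in the Agt difference was not tested.

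Macrophage markers differed between libraries as well as groups. Of 20, 10 were tested: 5 rose and 1 fell in Malt1_WT, 8 rose in Malt1_PD, and 4 were higher and 2 lower in Malt1_PD than in Malt1_WT. The shares of all tested genes were 27.2% and 27.7%, 22.8%, and 12.6% and 10.7%, in this order. The fall of Apoe in Malt1_WT ended without any 1 library compared and with limma-voom. Against Malt1_WT, the Csf1r call ended without Malt1_PD replicate 1 or 3 or any 1 Malt1_WT library. It also ended with DESeq2 and limma-voom, and the C1qb call with DESeq2. The summed level of the 20 markers in CPM was 39.3 to 39.9 with the vector, 74.1 to 77.9 in Malt1_WT, 77.7 to 84.7 in Malt1_PD, 36.5 to 42.3 in Malt1_V87R and 41.5 to 73.0 in Malt1_L88D. Lyz2, the macrophage lysozyme gene, was at 12.9 to 15.7 CPM in Malt1_PD and 2.38 to 6.90 CPM in Malt1_WT. Its calls in Malt1_PD ended without Malt1_PD replicate 1 or any 1 vector library, against the vector, and without Malt1_PD replicate 1 or 3 or Malt1_WT replicate 1 or 3, against Malt1_WT. It was also high in Malt1_L88D replicates 2 and 3, at 19.6 and 16.2 CPM, where Agt was at 1.71 and 1.95 CPM, against 5.49 CPM of Lyz2 and 1.39 CPM of Agt in Malt1_L88D replicate 1. The part of these markers in the Agt difference was not tested. In Malt1_L88D 4 macrophage markers rose, 7 were called without Malt1_L88D replicate 1, 1 without Malt1_L88D replicate 2 and 2 without vector replicate 1 or vector replicate 2. In Malt1_V87R 1 rose, Cd74. Of all tested genes, 8.97% were called higher in Malt1_L88D and 7.01% in Malt1_V87R.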

How the data were processed

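RNA of 15 E0771 libraries was analysed from the unnormalised counts per gene that the authors deposited. Per the submitters' processing notes, they come from featureCounts 1.6.3 on the build GRCm38.p6, with STAR 2.7.3a and Trim Galore 0.6.0. Annotation, strand setting and multi-mapping rule: not given in the sources used here. Per the labels' protocols the kit was directional. Columns were matched to samples by name, and the columns named for a cysteine substitution were taken as Malt1_PD because no other construct lacked columns.

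In R 4.3.3, edgeR 4.0.16 (filterByExpr, TMM, robust quasi-likelihood fit of all 15 libraries, 1 mean per group) tested 14571 genes, two-sided, with Benjamini-Hochberg adjustment over all of them and a threshold of 0.05. Fold changes used edgeR's default prior count. The fit was tested on simulated data. Pattern likeness used log2(CPM + 0.5). Positions came from GENCODE M21 and promoters from RefSeq.

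The 3 genes and the 20 gene lists were chosen with earlier results of these data known. Genes named are the 3, Malt1, the 5 most alike by r, the 3 neighbours on either side, from each list at most 4 called members, by adjusted p (with none called, the 3 of highest CPM), and the 5 highest genes that were near 0 with the vector. Those named as losing a call, as other members of a count, or as markers at 0 were chosen after their values were seen. Alternatives were RLE scaling, DESeq2 1.42.0, limma-voom (limma 3.58.1), no filter, only the 6 libraries compared, a prior count of 2, a replicate block and each library left out. A block over all 15 libraries by column number was added after seeing the data.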

Additional observations from a re-analysis of the deposited data

Results flagged for a closer look

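Agt lay on opposite sides of the same 3 vector libraries with different constructs. All 3 Malt1_PD libraries were above every vector library, and all 3 libraries each of Malt1_WT, Malt1_V87R and Malt1_L88D were below. The log2 fold change of Malt1_PD was 2.81 against Malt1_WT, 2.06 against Malt1_V87R and 2.05 against Malt1_L88D. The difference was not tested, because Agt had been chosen for it. Groups of 3 libraries are too small for a check of single outlying libraries.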

How the results depend on the processing

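No fold change of Fgf23, Ceacam15 or Agt against the vector changed direction under any alternative. Among fits of all libraries, a prior count of 2 gave Fgf23 log2 fold changes against the vector of 1.51 in Malt1_L88D, 1.66 in Malt1_V87R, 4.54 in Malt1_PD and 5.85 in Malt1_WT, where limma-voom gave 6.47. The same prior count gave 2.69 for Agt in Malt1_PD against Malt1_WT, and against Malt1_WT it gave -4.19 and -4.34 for Fgf23 and -5.03 and -4.65 for Ceacam15 in Malt1_V87R and Malt1_L88D. With only the 6 libraries compared, genes higher in Malt1_PD than in Malt1_WT numbered 1201, not 1834. Between Malt1_V87R and Malt1_L88D edgeR called 0 genes, with 852 at an unadjusted p under 0.05, and DESeq2 and limma-voom called 0. Without a filter 1 was higher and 4 lower, and with only the 6 libraries 14 and 11. Some calls named above also ended under another method. Against the vector, Prep and Arhgap35 in Malt1_WT and Vdr and Ceacam16 in Malt1_PD ended with DESeq2 and with only the 6 libraries compared. Hnf4a in Malt1_L88D ended with DESeq2, and Prep and Arhgap35 also with RLE scaling. Without a filter Prep in Malt1_WT, Lyz2 in Malt1_PD, and Stat3 in Malt1_PD against Malt1_WT ended.

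Leaving out 1 library in turn, the log2 fold changes against the vector ran from 1.83 to 2.26 (Malt1_L88D), 1.99 to 2.42 (Malt1_V87R), 5.05 to 5.48 (Malt1_PD) and 6.39 to 6.82 (Malt1_WT) for Fgf23. For Ceacam15 they ran from 0.60 to 1.58, 0.16 to 1.14, 5.13 to 6.11 and 5.43 to 6.41. Against Malt1_WT, Malt1_V87R ran from -4.54 to -4.32 for Fgf23 and -5.47 to -5.13 for Ceacam15, and against Malt1_L88D from 0.014 to 0.24 and -0.65 to -0.30. Genes lower in Malt1_V87R than with the vector numbered 357 to 823 (683 with all libraries, and fewest without vector replicate 1 or 3 or Malt1_V87R replicate 1 or 2), lower in Malt1_L88D 573 to 1344 (1228, fewest without vector replicate 1 or 3 or Malt1_L88D replicate 2 or 3), higher in Malt1_PD than in Malt1_WT 1107 to 2085 (fewest without Malt1_PD replicate 1 or 3 or Malt1_WT replicate 2 or 3), and lower in Malt1_V87R than in Malt1_L88D 0 to 2. Over all alternatives, 285 fold changes of the 3 genes moved by less than the spread between replicates and 27 by more. Apart from the smaller tables just named, the cause was not tested.

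A replicate block was fitted to the 12 libraries whose columns match a labelled sample by name. It gave 6.64, 5.79 and -1.77 for Fgf23, Ceacam15 and Agt in Malt1_WT and called 4261 genes higher and 3983 lower there (3958 and 4039 without it). Against the vector it called 1329 genes higher and 951 lower in Malt1_V87R (1021 and 683 without it). In Malt1_L88D it called 1685 and 1504 (1307 and 1228 without it). Same-numbered libraries had deviations correlated from -0.07 to 0.13, and others from -0.18 to 0.17. These ranges overlapped and showed no pairing by number, but cannot exclude a weak one. The Malt1_PD columns carry numbers too, but are tied to their group only. A block over all 15 libraries by column number, chosen after seeing the data, gave 5.29, 5.47 and 1.01 for Fgf23, Ceacam15 and Agt in Malt1_PD against the vector and -1.33, -0.29 and 2.80 against Malt1_WT, where it called 2057 genes higher and 1807 lower. Malt1_PD libraries had deviations correlated from -0.05 to 0.23 with libraries of the same column number and from -0.24 to 0.14 with others. The 8 Fgf23 and 24 Ceacam15 counts with the vector limit the precision of their fold changes.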

Other observations

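Fgf21, a liver hormone of the same endocrine FGF subfamily as Fgf23, was too low to test and was singled out after its values were seen. It had 1 count over the 3 vector libraries, 1 in Malt1_L88D, 5 in Malt1_V87R, 16 in Malt1_PD and 15 in Malt1_WT, or 0.0155 ± 0.0268, 0.0197 ± 0.0341, 0.0814 ± 0.0266, 0.294 ± 0.0278 and 0.314 ± 0.0807 CPM. All 6 libraries of Malt1_WT and Malt1_PD were above the 3 vector libraries. Capn9, a gene next to Agt, had 11 counts with the vector, 4 in Malt1_WT and 23 in Malt1_PD, at 0.184 ± 0.0557, 0.0834 ± 0.0989 and 0.422 ± 0.158 CPM, and was not tested. Its Malt1_WT libraries (0 to 0.193 CPM) overlapped those of the vector (0.123 to 0.232 CPM). Malt1_V87R had 11 counts and Malt1_L88D 15, at 0.181 ± 0.128 and 0.278 ± 0.0226 CPM. In those groups Capn9 was thus near or above its vector mean, whereas Agt was below its own.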
